A study of Homo sapiens with 6 samples.

Results

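The MYC, MAX and MXD network is a family of transcription factors that pair with each other through helix-loop-helix and leucine zipper domains, and it is described here through 10 genes: MYC, MYCL, MAX, MXI1, MXD1, MXD3, MXD4, MNT, MLX and MLXIP. They were taken by gene symbol from the 60708 genes counted by RNA sequencing, each symbol was found in 1 row, and 9 reached the minimum of 10 reads in both groups, while MYCL reached it in VC alone. The RNA came from Caki-1, an established human clear cell renal carcinoma line with a wild-type VHL gene. VC samples (n = 3) are Caki-1 cells that received the empty vector, and VHL-KO samples (n = 3) are Caki-1 cells that received a lentivirus carrying Cas9 and a guide RNA against VHL, followed by puromycin selection and a screen of single clones by immunoblot. How many clones stand behind the 3 VHL-KO replicates is not given in the sources used here, so a difference between the groups cannot be told apart from a difference between clones. Nothing states that replicates of a group were separate cultures, and p-values therefore measure only the spread between these samples, which may be technical. The VC samples held 31789923, 28463579 and 34881739 reads counted on genes, and the VHL-KO samples held 29139722, 22805385 and 22628246.

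MYC proteins bind DNA as pairs with MAX, at E-box sites such as CACGTG, and activate genes of growth, ribosome assembly and metabolism. MXD proteins and MNT pair with the same MAX and recruit the SIN3 corepressor to such sites, while MLX pairs with MLXIP, a glucose-sensing factor also called MondoA, and with some of the MXD proteins and MNT. VHL is the substrate receptor of a ubiquitin ligase that marks the α subunits of hypoxia-inducible factor (HIF) for degradation, and MXI1 is a known target gene of HIF.

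VHL-KO cells held less MYC and more MXI1 and MXD4 RNA than VC cells, while the shared partner MAX did not pass the test. In edgeR's quasi-likelihood test, p was adjusted over 17401 genes by the Benjamini-Hochberg (BH) method. A gene that reached the minimum in 1 group alone was selected for being high there, so the counts here leave out MYCL and are set beside the 15328 genes that reached it in both groups, a limit chosen after seeing the data. Of the 9 genes, 7 were under 0.05, beside 62.3% of these genes (59.7% of all genes tested). Of these, 4 (MXI1, MXD4, MNT and MLXIP) rose, beside 28.7% (28.5% of all tested), and 3 (MYC, MXD3 and MLX) fell, beside 33.6% (31.2%). The groups did not overlap in TMM-normalized CPM, a read count scaled to sequencing depth, for the same 7 genes, beside 66.6% (64.7% of all tested), and 2 of the 9 (MXI1 and MXD4) changed at least 2-fold, beside 24.2% (26.2%). Most genes differed between these groups, so the count of changed network genes is read against a high background. The median log2 fold change (VHL-KO over VC) was 0.20 over the 9 genes and -0.03 over all genes with 10 reads in both groups. With library size alone in place of TMM factors the median of all such genes moved to -0.22 and that of the 9 genes to 0.01, and with upper quartile factors they were 0.08 and 0.32. Among the calls on genes with 10 reads in both groups, the share of higher ones was 46.0% after TMM scaling, against 34.0% for library size alone and 53.6% for upper quartile scaling.

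**Figure D1:**
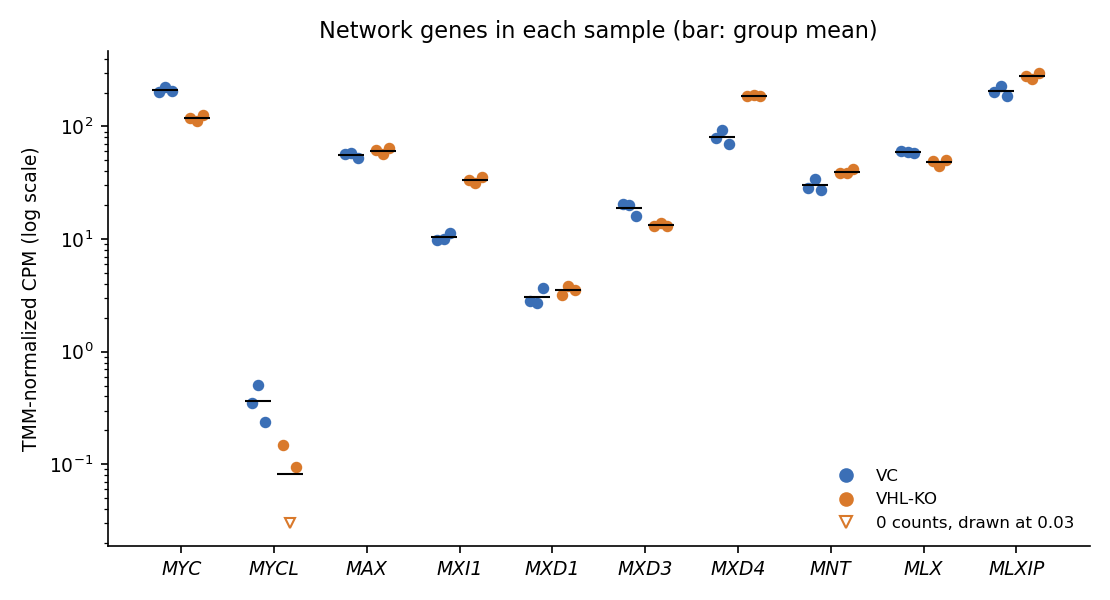
TMM-normalized CPM (log scale) of the 10 network genes in each VC sample (blue) and each VHL-KO sample (orange), with a bar at each group mean. The samples of the groups lie apart for MYC, MXI1 and MXD4 and overlap for MAX and MXD1, and the sample of MYCL without a read is drawn as an open triangle at 0.03.

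The edited gene, VHL (ENSG00000134086.8), gave 1454, 1124 and 1522 reads in the VC samples against 929, 657 and 650 in the VHL-KO samples. Its transcript was present in every sample, lower in each VHL-KO sample than in any VC sample after normalization. The log2 fold change was -0.33 (SE 0.11, BH-adjusted p = 0.0109 in edgeR's quasi-likelihood test), and the adjusted p was 0.0862 leaving out VC replicate 1, 0.0621 leaving out VHL-KO replicate 2, 0.0905 with upper quartile factors and 0.276 with offsets for GC content and transcript length. These values lie in a range of 0.000293 to 0.276 over 14 alternatives. Of the exonic bases of VHL, 23.5% lie in other annotated genes, and counts per gene do not show the edit itself.

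MYC (ENSG00000136997.21) encodes the DNA-binding activator of the network. It gave 6899, 6596 and 7782 reads in the VC samples against 3166, 2406 and 2667 in the VHL-KO samples. Normalized for depth this was 202, 222 and 205 CPM in VC and 118, 111 and 125 CPM in VHL-KO. All 3 VC samples were higher than all 3 VHL-KO samples, with a wide gap between the groups beside the spread within them. The mean was 210 ± 10.8 CPM in VC and 118 ± 6.79 CPM in VHL-KO (mean ± SD over 3 samples of a group). Its log2 fold change was -0.82 (SE 0.09, BH-adjusted p = 2.4e-08 in edgeR's quasi-likelihood test), between -1.02 and -0.70 over 14 alternatives. Of the genes tested, 18.6% had a lower log2 fold change than MYC. In RNA from whole cultures, less RNA per cell and fewer cells that make it cannot be told apart.

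MYCL (ENSG00000116990.11), a paralogue of MYC, was scarce. It gave 12, 15 and 9 reads in the VC samples against 4, 0 and 2 in the VHL-KO samples, reaching the minimum for testing only through VC, so each VC sample was above each VHL-KO sample but on few reads. Summed over samples, the normalized VHL-KO level was 0.244 times the VC level, with an exact binomial 95% interval of 0.084 to 0.584 that covers counting error only. The fitted log2 fold change was -2.03 (SE 0.85). Since MYCL was selected by its reads in VC, the test of this gene is not read as a call. The remaining paralogue, MYCN, had 0 counts in all 6 samples, which allows up to 0.079 CPM in the deepest sample and 0.141 CPM in the shallowest.

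MAX (ENSG00000125952.20), the obligate partner of MYC, gave 1931, 1730 and 1983 reads in the VC samples against 1664, 1223 and 1360 in the VHL-KO samples. The mean was 55.7 ± 3.09 CPM in VC and 60.9 ± 3.75 CPM in VHL-KO (n = 3 each), and the groups overlapped. The log2 fold change was 0.13 (SE 0.10, BH-adjusted p = 0.258 in edgeR's quasi-likelihood test), with a value of -0.06 with library size alone and 0.24 (adjusted p = 0.0443) with upper quartile factors, in a range of adjusted p from 0.0443 to 0.581. Exons of MAX share 16.1% of their bases with other annotated genes, FNTB (177, 144 and 193 reads in VC, 181, 174 and 143 in VHL-KO, log2 fold change 0.51) and CHURC1-FNTB (0 in all samples) on the opposite strand. The ratio of MYC to MAX within a sample is free of the scaling between samples. Per kilobase of exon, it was 3.66, 3.91 and 4.02 in VC and 1.95, 2.01 and 2.01 in VHL-KO, so the excess of MYC over MAX RNA was lower in every VHL-KO sample. MGA, a further partner of MAX, gave 954, 714 and 1243 reads in the VC samples against 538, 472 and 566 in the VHL-KO samples. The groups overlapped for MGA after normalization, and its log2 fold change of -0.31 (SE 0.13, adjusted p = 0.0485 by the same test) was lost in 8 alternatives and reversed to 0.05 with GC and length offsets. Its adjusted p was 0.0917 leaving out VC replicate 1, 0.24 leaving out VC replicate 3, 0.241 leaving out VHL-KO replicate 1 and 0.144 leaving out VHL-KO replicate 2, in a range of 0.00488 to 0.699.

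Among the repressors that pair with MAX, MXI1 (ENSG00000119950.21, also called MXD2) rose most. It lies on the forward strand at chr10:110207605-110287365 (GRCh38, GENCODE release 44). It gave 336, 298 and 428 reads in the VC samples against 902, 678 and 759 in the VHL-KO samples. This was 9.84, 10.0 and 11.3 CPM in VC and 33.8, 31.4 and 35.6 CPM in VHL-KO, and every VHL-KO sample was far above every VC sample. The fold change was 3.23 (log2 fold change 1.69, SE 0.12, BH-adjusted p = 2.8e-11 in edgeR's quasi-likelihood test), and 7.52% of all genes tested had a higher one. Within samples, the ratio of MYC to MXI1 per kilobase of exon went from 19.9, 21.4 and 17.6 in VC to 3.39, 3.43 and 3.40 in VHL-KO.

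MXD4 (ENSG00000123933.17, reverse strand, chr4:2247432-2262109) was the most abundant repressor of the network per kilobase of exon. It gave 2715, 2780 and 2650 reads in the VC samples against 4937, 4104 and 3976 in the VHL-KO samples. The 3 VHL-KO samples lay close together, at 185, 190 and 187 CPM, above VC samples at 79.5, 93.6 and 69.8 CPM. The fold change was 2.31 (log2 fold change 1.21, SE 0.10, BH-adjusted p = 2.7e-10 in edgeR's quasi-likelihood test). MXI1 and MXD4 kept their direction and call in all 14 alternatives, with log2 fold changes from 1.50 to 1.99 and from 1.02 to 1.34.

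Sequences around the annotated starts of MXI1 and MXD4, the genes of the network with the largest called rises, are shown beside that of MLX, a gene that fell. RefSeq (GRCh38.p14) gives windows from 250 bases before to 50 bases after a start, and 12 such windows matched 9 of the 10 genes by symbol. MYC had no window and is not in the counts of matches. Both strands were searched for the E-box CACGTG and for the cores of the HIF response element, ACGTG or else GCGTG; every E-box also holds the core ACGTG. Of all 35116 windows of this length, 7.26% held the E-box, 21.4% held the first core, 36.5% held the second and 48.4% held at least 1 of the cores. Capitals mark the matches. MXI1 has 3 windows, none of which holds the E-box. The first holds no match, the second (forward strand, chr10:110209981-110210280) has both cores and the third (forward strand, chr10:110225746-110226045) has the second core on each strand. The windows of MXD4 (reverse strand, chr4:2262060-2262359) and MLX (forward strand, chr17:42566850-42567149) both hold the E-box, 238 and 50 bases before the start.
MXI1 start 2: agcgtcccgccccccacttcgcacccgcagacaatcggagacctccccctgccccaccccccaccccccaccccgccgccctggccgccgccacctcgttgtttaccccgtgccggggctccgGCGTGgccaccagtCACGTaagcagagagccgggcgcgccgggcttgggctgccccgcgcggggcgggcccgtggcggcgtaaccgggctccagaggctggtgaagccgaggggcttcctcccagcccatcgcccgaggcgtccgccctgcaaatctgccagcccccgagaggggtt
MXI1 start 3: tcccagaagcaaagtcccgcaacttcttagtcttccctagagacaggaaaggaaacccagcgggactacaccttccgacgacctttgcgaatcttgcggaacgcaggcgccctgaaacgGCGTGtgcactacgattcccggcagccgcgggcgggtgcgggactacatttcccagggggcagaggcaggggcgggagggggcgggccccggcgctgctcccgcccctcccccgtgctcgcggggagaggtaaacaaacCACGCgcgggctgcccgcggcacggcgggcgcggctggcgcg
MXD4: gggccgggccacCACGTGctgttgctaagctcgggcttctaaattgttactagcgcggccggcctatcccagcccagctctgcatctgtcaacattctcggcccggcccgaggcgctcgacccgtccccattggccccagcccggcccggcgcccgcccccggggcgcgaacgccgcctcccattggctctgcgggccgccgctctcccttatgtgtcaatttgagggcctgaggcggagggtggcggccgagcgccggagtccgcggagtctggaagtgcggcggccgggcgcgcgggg
MLX: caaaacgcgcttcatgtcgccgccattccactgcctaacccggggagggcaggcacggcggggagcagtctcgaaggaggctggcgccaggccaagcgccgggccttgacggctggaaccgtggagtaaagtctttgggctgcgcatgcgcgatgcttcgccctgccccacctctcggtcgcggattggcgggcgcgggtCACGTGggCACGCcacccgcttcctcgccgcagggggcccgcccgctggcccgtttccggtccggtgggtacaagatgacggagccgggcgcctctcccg
MNT also has the E-box, 193 bases before its start, so 3 of the 12 windows of these genes hold it and 9 of the 12 hold at least 1 core. The E-box windows belong to MXD4 and MNT, which rose, and to MLX, which fell. A match is a description of letters, and which start of MXI1 was used is not shown by counts per gene.

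The other repressors moved less. MXD3 (ENSG00000213347.10, reverse strand, chr5:177301461-177312757) gave 697, 598 and 608 reads in the VC samples against 346, 300 and 276 in the VHL-KO samples. This was 18.9 ± 2.46 CPM in VC and 13.3 ± 0.55 CPM in VHL-KO (n = 3 each), with each VHL-KO sample below each VC sample. This gave a log2 fold change of -0.51 (SE 0.14, BH-adjusted p = 0.00251 in edgeR's quasi-likelihood test), opposite in sign to MXI1 and MXD4. Of the exonic bases of MXD3, 43.7% lie inside other annotated genes, RAB24 on the same strand and PRELID1 on the opposite strand. RAB24 gave 187, 203 and 143 reads in the VC samples against 214, 163 and 132 in the VHL-KO samples, with a log2 fold change of 0.45 that did not pass (adjusted p = 0.056). PRELID1 gave 14003, 14062 and 15148 reads in the VC samples against 8874, 6365 and 6425 in the VHL-KO samples and fell (log2 fold change -0.47), and whether reads of either enter the count of MXD3 was not tested, since the strand setting of the counting is not given in the sources used here.

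MNT (ENSG00000070444.15, reverse strand, chr17:2384073-2401104), a MAX-binding repressor found in most cell types, gave 965, 1017 and 1045 reads in the VC samples against 1034, 831 and 886 in the VHL-KO samples. After normalization each VHL-KO sample was above each VC sample, with 30.0 ± 3.68 CPM in VC and 39.6 ± 1.70 CPM in VHL-KO (n = 3 each). MNT had a log2 fold change of 0.40 (SE 0.11, BH-adjusted p = 0.00365 in edgeR's quasi-likelihood test), but 0.21 (adjusted p = 0.107) with library size alone and 0.09 (adjusted p = 0.291) with GC and length offsets, in a range of 6.8e-05 to 0.291. Exons of MNT share 12.2% of their bases with another annotated gene on the opposite strand, and whether its reads enter the count of MNT was not tested. MXD1 (ENSG00000059728.11, forward strand, chr2:69897688-69942945) gave 96, 81 and 139 reads in the VC samples against 86, 83 and 76 in the VHL-KO samples. Its groups overlapped, at 3.07 ± 0.52 and 3.54 ± 0.31 CPM, and its log2 fold change of 0.20 (SE 0.21, adjusted p = 0.422) did not pass the same test, while with GC and length offsets it was 0.59 (adjusted p = 0.00831, in a range of 0.00831 to 0.981).

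MLX (ENSG00000108788.12) and MLXIP (ENSG00000175727.14), which pair with each other, moved in opposite directions. MLX, on the forward strand at chr17:42567072-42573239, gave 2061, 1746 and 2216 reads in the VC samples against 1325, 959 and 1066 in the VHL-KO samples. The VC samples were close together, at 59.2 ± 1.05 CPM, and above the VHL-KO samples, at 48.0 ± 3.10 CPM (n = 3 each). The log2 fold change of MLX was -0.30 (SE 0.10, BH-adjusted p = 0.0107 in edgeR's quasi-likelihood test), and the adjusted p was 0.114 with upper quartile factors, 0.0651 leaving out VC replicate 1 and 0.0866 leaving out VHL-KO replicate 2, in a range of 0.000153 to 0.114. Exons of MLX share 18.2% of their bases with other genes, and PSMC3IP on the opposite strand gave 793, 687 and 787 reads in the VC samples against 171, 226 and 190 in the VHL-KO samples. The part of these reads in the count of MLX was not tested.

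MLXIP, on the forward strand at chr12:122078756-122147344, gave 6974, 6740 and 7101 reads in the VC samples against 7511, 5680 and 6329 in the VHL-KO samples. Normalized, the VHL-KO samples (280 ± 16.8 CPM) were above the VC samples (206 ± 19.96 CPM, n = 3 each). The log2 fold change of MLXIP was 0.44 (SE 0.09, BH-adjusted p = 0.000205 in edgeR's quasi-likelihood test), with a call in all 14 alternatives. Per kilobase of exon, the ratio of MLXIP to MLX was 1.04, 1.18 and 0.983 in VC and 1.74, 1.82 and 1.82 in VHL-KO, so the pair were near parity in VC and MLXIP was in excess in VHL-KO. MLXIPL, the related factor ChREBP, gave 0, 1 and 1 reads in the VC samples against 5, 4 and 2 in the VHL-KO samples and was below the read minimum for testing. Its summed normalized ratio was 8.04, with an exact binomial 95% interval of 1.76 to 74.7 for counting error.

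**Figure D2:**
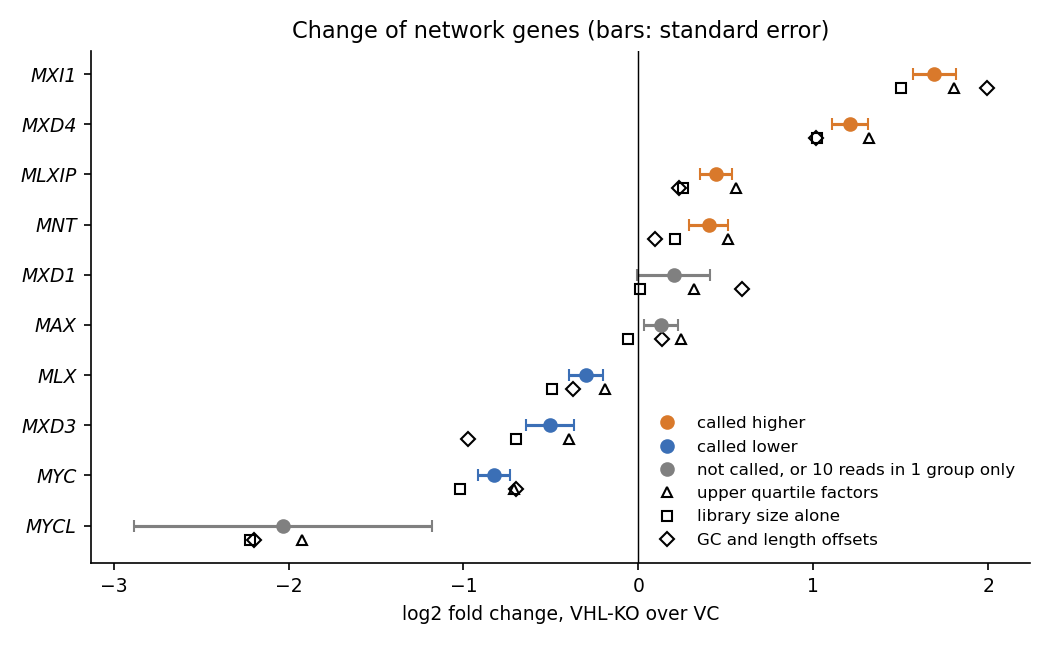
Log2 fold change (VHL-KO over VC) of the 10 network genes, with bars for the standard error, beside open symbols for the same value with upper quartile factors, library size alone, and offsets for GC content and transcript length. MXI1 and MXD4 are right of 0 and MYC, MXD3 and MYCL left of 0 with each of these (MYCL in grey, since it had 10 reads in VC alone), and MAX falls left of 0 with library size alone.

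Levels of different network genes were compared as TMM-normalized CPM per kilobase of exon. In VC, MYC led the level per kilobase at 34.3 ± 1.76, followed by MLXIP at 14.9 ± 1.44, MLX at 13.9 ± 0.25 and MXD4 at 11.8 ± 1.74 CPM per kilobase, and samples of MLXIP and MLX overlapped. MAX followed in VC at 8.90 ± 0.49, then MXD3 at 3.98 ± 0.52 and MNT at 3.45 ± 0.42 CPM per kilobase, a pair whose samples overlapped although MXD3 was above MNT within each VC sample. Below them were MXI1 at 1.76 ± 0.13, MXD1 at 0.48 ± 0.08 and MYCL at 0.073 ± 0.027 CPM per kilobase. In VHL-KO, MXD4 led the level per kilobase at 27.2 ± 0.40, ahead of MLXIP at 20.2 ± 1.21 and MYC at 19.4 ± 1.11. The difference of MLXIP and MYC was within their SD between samples, but within each VHL-KO sample MLXIP was the higher. MLXIP took 19.95, 19.43 and 20.37% of the summed CPM per kilobase of the network there, and MYC 19.09, 18.68 and 19.49%. MXI1 rose in this order from below MNT and MXD3 to above both, at 5.69 ± 0.35 CPM per kilobase in VHL-KO against 4.55 ± 0.20 for MNT and 2.80 ± 0.12 for MXD3.

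As a share of the summed CPM per kilobase of the network, MYC with MYCL and MYCN took 35.9, 36.5 and 38.0% in the VC samples and 19.1, 18.7 and 19.5% in the VHL-KO samples. The repressors MXD1, MXI1, MXD3, MXD4 and MNT together took 23.0, 24.0 and 21.7% in VC and 39.6, 41.9 and 39.2% in VHL-KO. The order of the MYC genes and the repressors was thus opposite in the groups, and no sample departed from its group. The ratio of repressor RNA to RNA of MYC, MYCL and MYCN was 0.623 ± 0.046 in VC and 2.11 ± 0.12 in VHL-KO (n = 3 each). MLXIP took 15.9 ± 0.56% in VC and 19.9 ± 0.47% in VHL-KO, and this order and ratio leave it out. MAX took a share of 9.52 ± 0.24% in VC and 9.59 ± 0.28% in VHL-KO. Shares are of RNA and not of protein, and they carry no test.

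**Figure D3:**
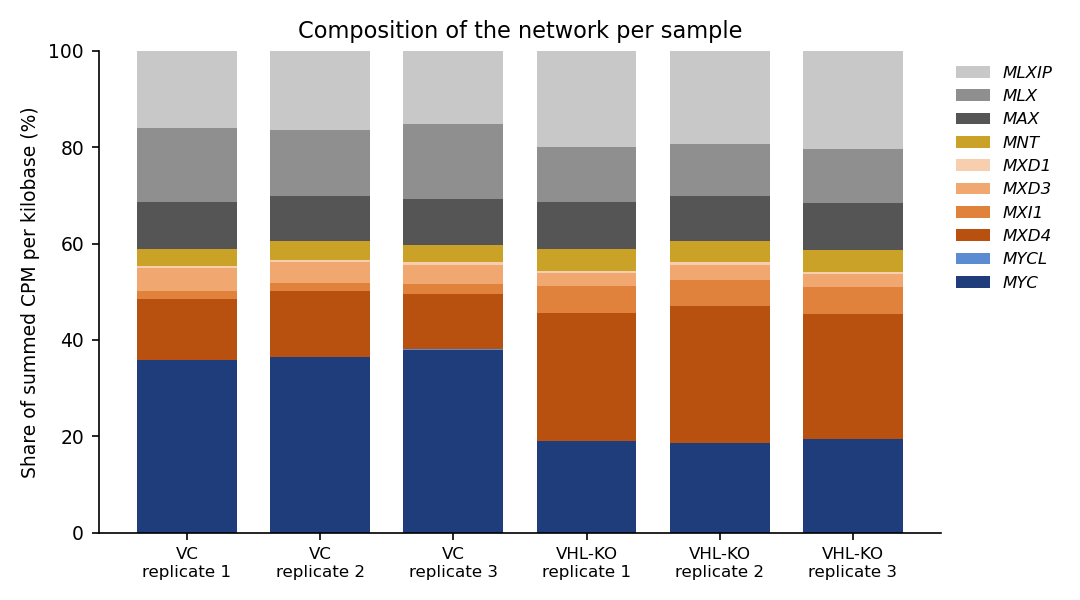
Share (%) of each network gene in the summed TMM-normalized CPM per kilobase of exon, as stacked bars for each VC and VHL-KO sample. MYC takes 36.7% of the VC bars and 19.1% of the VHL-KO bars on average, and MXD4 takes 12.6% and 26.9%.

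Log2 fold changes in these data followed GC content, with a Spearman's rho of 0.396 across 13144 genes, which are not independent replicates. The median log2 fold change was -0.54 for genes with at most 40% GC and 0.46 for those above 60%. MXI1, with 43.8% GC, rose where genes of 40 to 45% GC had a median of -0.36, and MXD3, with 61.3% GC, fell where genes above 60% had a median of 0.46. MNT, also with 61.3% GC, lay near the median of such genes. With offsets that remove the trend with GC content and length in each library, the log2 fold change was -0.70 for MYC, 1.99 for MXI1, 1.02 for MXD4 and -0.98 for MXD3. The same offsets gave -0.37 for MLX and 0.23 for MLXIP, both still called.

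**Figure D4:**
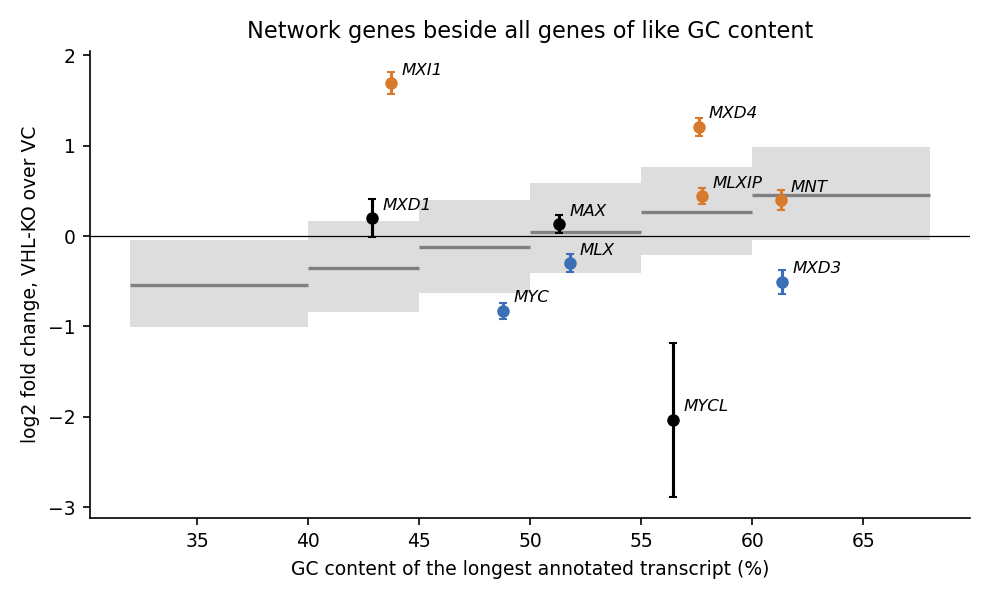
Log2 fold change (VHL-KO over VC) of the network genes, with standard errors, against the GC content (%) of their longest annotated transcript. Grey lines and boxes give the median and the middle 50% of all genes in each GC range, the outer ranges being drawn up to the axis limits. Among network genes with 10 reads in both groups, MXI1, MXD4 and, narrowly, MXD1 lie above the box of their range, and MYC and MXD3 lie below it.

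Textbook MYC targets were mostly lower in VHL-KO. Of 28 targets in ribosome biogenesis, 22 fell and 1 rose, with a median log2 fold change of -0.64. Over all genes with 10 reads in both groups, 33.6% fell and 28.7% rose, and the median was -0.03. NOLC1, a nucleolar chaperone, went from 286 ± 6.92 to 99.9 ± 9.12 CPM (log2 fold change -1.52), UTP20 from 59.1 ± 4.74 to 18.2 ± 1.72 CPM (-1.70), NCL, or nucleolin, from 1227 ± 64.7 to 679 ± 11.1 CPM (-0.85) and NPM1, or nucleophosmin, from 1217 ± 185 to 467 ± 17.4 CPM (-1.38). NPM1 has many processed pseudogenes, and since reads at several positions were dropped its count is uncertain. PPAN was the 1 that rose (log2 fold change 0.56, SE 0.22, BH-adjusted p = 0.0307 in edgeR's quasi-likelihood test), with 49.2% of its exonic bases in other genes and a call that was lost in 6 of 14 alternatives. Its adjusted p was 0.133 leaving out VC replicate 1, 0.0999 leaving out VC replicate 3 and 0.0958 leaving out VHL-KO replicate 2, in a range of 0.00298 to 0.716.

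Of 24 targets in metabolism, 18 fell (75%, beside 33.6% of all genes) and 3 rose (12.5%, beside 28.7%), with a median log2 fold change of -0.85. ODC1, the first enzyme of polyamine synthesis, gave 4170, 3769 and 5178 reads in the VC samples against 787, 614 and 686 in the VHL-KO samples (log2 fold change -2.10), PRMT3 fell by 1.91 and the chaperone HSPD1 by 1.50 on the log2 scale. The 3 that rose were LDHA, ENO1 and NME1. LDHA and ENO1 are glycolytic enzymes and textbook HIF targets as well, and LDHA went from 1775 ± 102 to 4726 ± 140 CPM (log2 fold change 1.41) and ENO1 from 2364 ± 229 to 4244 ± 108 CPM (0.84). NME1 rose less (log2 fold change 0.31, SE 0.11, BH-adjusted p = 0.018 in edgeR's quasi-likelihood test), with an adjusted p of 0.124 leaving out VHL-KO replicate 1, 0.0661 leaving out VHL-KO replicate 2 and 0.385 with library size alone, in a range of 0.00179 to 0.385. HSPD1, LDHA and ENO1 have pseudogenes too, and their counts share that uncertainty. Summed over the list, the level was 8669, 8725 and 8766 CPM in VC and 11790, 11600 and 11620 CPM in VHL-KO, higher in VHL-KO although most of its genes fell. By CPM without length, ENO1 was the most abundant gene in VC and LDHA in VHL-KO. Per kilobase of exon, the mean of ENO1 was above that of LDHA in both groups. It was 453 ± 43.9 against 295 ± 16.8 in VC and 814 ± 20.7 against 784 ± 23.2 in VHL-KO.

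Of 11 targets in the cell cycle 9 had 10 reads in both groups, and of these 8 fell (88.9%, beside 33.6% of all genes) and 0 rose (median log2 fold change -1.34), among them MCM4, a helicase subunit (309 ± 13.5 to 69.0 ± 6.05 CPM, -2.17) and the phosphatase CDC25A (30.1 ± 1.27 to 7.82 ± 1.41 CPM, -1.95). TERT, the reverse transcriptase of telomerase, reached the minimum in VC alone and is not in this count. It gave 90, 70 and 85 reads in the VC samples against 4, 6 and 2 in the VHL-KO samples, a summed normalized ratio of 0.0716 with an exact binomial 95% interval of 0.0365 to 0.127 for counting error. CDK4, the most abundant of the list, did not pass (-0.14, BH-adjusted p = 0.15 in edgeR's quasi-likelihood test) and was called lower with library size alone (-0.34) and with GC and length offsets (-0.32). Of 8 genes that MYC is known to repress 6 were tested, and 4 rose and 2 fell (median 0.95), or 66.7% and 33.3% beside 28.7% and 33.6% of all genes. NDRG1 gave 413, 331 and 445 reads in the VC samples against 19464, 16703 and 16656 in the VHL-KO samples (log2 fold change 6.03), NDRG2 had a log2 fold change of 1.42 and the stress factor DDIT3 one of 1.07, and CDKN1A, the p21 inhibitor of the cell cycle, 0.82. THBS1, which encodes the angiogenesis inhibitor thrombospondin, went the other way (-2.89), as did GADD45A (-0.47). The part of MYC in these changes, that of NDRG1 included, was not tested.

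**Figure D5:**
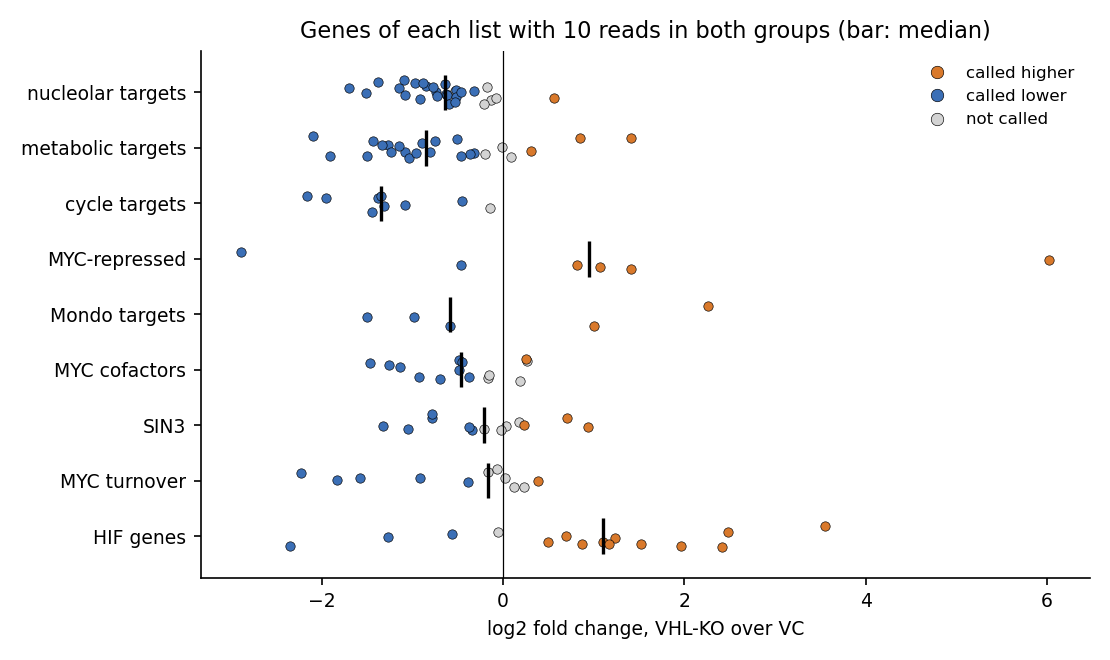
Log2 fold change (VHL-KO over VC) of the genes of 9 lists that had 10 reads in both groups, with called genes in orange or blue, others in grey and a bar at the median of each list. The medians of the nucleolar, metabolic and cycle targets of MYC lie at -0.64, -0.85 and -1.34, and the point farthest to the right is NDRG1.

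Among 7 targets of MLXIP and MLXIPL 5 were tested, and 2 rose and 3 fell (median log2 fold change -0.58), where 28.7% of all genes rose and 33.6% fell. Those that rose are arrestin-like proteins that restrain glucose uptake, TXNIP (38.2 ± 1.08 to 183 ± 11.0 CPM, log2 fold change 2.26) and ARRDC4 (2.30 ± 0.60 to 4.60 ± 1.09 CPM, 1.00). Those that fell are enzymes of fatty acid synthesis, FASN (864 ± 99.5 to 306 ± 16.7 CPM, -1.50), ACACA (-0.98) and ELOVL6 (-0.58, or -0.13 with GC and length offsets, which ended its call).

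Of 13 subunits of the SIN3 corepressor, 3 rose and 6 fell, or 23.1% and 46.2% beside 28.7% and 33.6% of all genes (median log2 fold change -0.21, all genes -0.03). The scaffold SIN3A went from 45.0 ± 1.65 to 26.1 ± 3.20 CPM (-0.79), and the histone-binding subunits RBBP7 and RBBP4 changed by -1.33 and -1.05, while ARID4A and ARID4B rose by 0.93 and 0.70. By CPM without length, BRMS1 was the most abundant in VHL-KO and RBBP7 in VC. Per kilobase of exon BRMS1 was above RBBP7 in both groups, at 55.3 against 24.8 in VC and 64.9 against 9.90 in VHL-KO. BRMS1 rose by 0.23 (SE 0.10, BH-adjusted p = 0.0431 in edgeR's quasi-likelihood test) but was lost in 7 alternatives and reversed with GC and length offsets, which called it lower (-0.31, adjusted p = 7.4e-05). Its adjusted p was 0.129 leaving out VC replicate 1, 0.146 leaving out VC replicate 3, 0.132 leaving out VHL-KO replicate 1, 0.0826 leaving out VHL-KO replicate 2 and 0.0686 leaving out VHL-KO replicate 3, in a range of 7.4e-05 (for that fall) to 0.708.

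Of 14 cofactors of MYC, 1 rose (7.14%, beside 28.7% of all genes) and 9 fell (64.3%, beside 33.6%), with a median log2 fold change of -0.47, and over 14 alternatives 0 to 3 rose and 9 to 11 fell. ACTL6A, a subunit shared by chromatin remodellers, changed by -1.47, MYCBP by -1.25, EP400 by -1.14 and RUVBL2, the most abundant, by -0.45. KAT5 was the 1 that rose (0.26, SE 0.10, BH-adjusted p = 0.032 in edgeR's quasi-likelihood test), a call lost in 6 alternatives and reversed to -0.11 with GC and length offsets. Its adjusted p was 0.104 leaving out VC replicate 1, 0.0637 leaving out VC replicate 3, 0.113 leaving out VHL-KO replicate 1 and 0.0773 leaving out VHL-KO replicate 2, in a range of 0.0036 to 0.577. Of 11 enzymes and partners that set the stability of MYC protein, 1 rose (9.09%, beside 28.7% of all genes) and 5 fell (45.5%, beside 33.6%), with a median of -0.17, and over 14 alternatives 0 to 3 rose and 4 to 5 fell. AURKA, a kinase that stabilizes MYC proteins, went from 140 ± 10.1 to 29.8 ± 1.91 CPM (-2.23), and the ubiquitin ligase subunit SKP2 (-1.84), the phosphatase inhibitor CIP2A (-1.58) and the ubiquitin ligase HUWE1 (-0.92) also fell. FBXW7, which marks MYC for degradation, had a log2 fold change of -0.17 and did not pass. Among the genes named from these lists, RBBP4 (22.8%), KAT5 (38.6%), PPAN (49.2%), CDK4 (44.2%) and DDIT3 (39.6%) share over 20% of their exonic bases with other genes, and their counts are uncertain to that extent.

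Among 16 genes of the HIF pathway, listed because MXI1 is one of its targets, 15 had 10 reads in both groups, and of these 11 rose (73.3%, beside 28.7% of all genes) and 3 fell (20%, beside 33.6%), with a median log2 fold change of 1.10. ADM rose by 3.55 and VEGFA by 2.48 on the log2 scale, and SLC2A1, the most abundant, by 0.70. CA9, which reached the minimum in VHL-KO alone and has 35.7% of its exonic bases in other genes, gave 0, 0 and 2 reads in the VC samples against 288, 247 and 233 in the VHL-KO samples, a summed normalized ratio of 562 with an exact binomial 95% interval of 155 to 4650 for counting error. The 3 that fell were HIF1A (65.7 ± 14.1 to 12.9 ± 1.55 CPM, -2.35), EGLN3 (1.72 ± 0.32 to 0.731 ± 0.309 CPM, -1.26) and EPAS1, which encodes HIF2α (182 ± 13.6 to 123 ± 3.23 CPM, -0.56). The list did not hold MXI1, whose log2 fold change of 1.69 lies above its median.

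The cells carried markers of kidney epithelium, with 8 of 9 tested, 5 higher (62.5%, beside 28.7% of all genes) and 1 lower (12.5%, beside 33.6%) in VHL-KO and PAX2 at 0 counts in all samples. With library size alone 3 were higher and 2 lower. Their summed level was 1932, 2123 and 1856 CPM in VC and 2673, 2582 and 2629 CPM in VHL-KO, with KRT8 the most abundant, and the part of this difference in the network was not tested. PAX8, the renal lineage factor, with 22.4% of its exonic bases in other genes, rose by 0.52 and CDH16 by 3.42 on the log2 scale. Of 11 markers of leukocytes, endothelium, fibroblasts and neurons, 2 reached the read minimum in both groups, 0 of them rose and 1 fell, and the summed level was 36.8, 38.1 and 30.4 CPM in VC and 30.1, 28.0 and 25.4 CPM in VHL-KO. COL1A1 made up most of it and fell (log2 fold change -0.42), CD3E and LUM were at 0 in all samples, PTPRC had 1 count at most in any sample, and PECAM1, which reached the minimum in VHL-KO alone, gave 1, 5 and 0 reads in the VC samples against 14, 7 and 9 in the VHL-KO samples.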

How the data were processed

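RNA was measured in 6 samples, grouped by the labels. Per the study's methods and processing notes, reads were trimmed (Trim Galore, Cutadapt), aligned with STAR to GRCh38.p13, kept if at a single location and counted with HTSeq, and the authors deposited raw counts per gene without normalization. Versions, annotation release and strand setting are not given in the sources used here. The groups were compared in edgeR 4.0.16 (R 4.3.3; TMM factors, quasi-likelihood F test, two-sided, Benjamini-Hochberg adjustment), a procedure tested on simulated data, for genes reaching 10 reads in 1 or more samples. The simulated data held few changed genes, drawn at equal odds up or down. They therefore do not test the choice of scaling where most genes differ, as here. SE is the absolute log2 fold change over the square root of F. Exon lengths, GC contents, overlaps and gene positions came from GENCODE release 44. Named genes are the 10 members, MYCN, MGA, MLXIPL, VHL, HIF1A and EPAS1, and in each list up to 3 called rises and 3 called falls with a mean of at least 1 CPM and the most abundant tested gene. In these lists, most abundant means highest in CPM, not divided by length. CDKN1A, FBXW7, FNTB, RAB24, PRELID1, PSMC3IP and marker genes near 0 were named after their values were seen. Members and lists were chosen with earlier results of these data known. Alternatives were RLE and upper quartile factors, library size alone, DESeq2 1.42.0, 2 other read filters, each sample left out, a replicate block, and offsets for GC content and length. Figures were drawn with matplotlib 3.10.9.

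1 gene of the lists is not reported here.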

Additional observations from a re-analysis of the deposited data

How the results depend on the processing

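Over 14 alternatives, between 9215 and 10501 genes and 6 to 7 of the 9 network genes with 10 reads in both groups were called. Counting only genes with 10 reads in both groups, a limit chosen after seeing the data, 9546 genes and 7 network genes were called, and 1 marker of other cell types. MYC, MXI1, MXD4, MXD3 and MLXIP kept their direction and call in each, as did 43 of 51 other named genes with 10 reads in both groups (VHL aside). The cause of the changes listed here was not tested.

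MYCL, selected by its reads in VC so that no call is read, had a log2 fold change of -1.93 with upper quartile factors, -2.09 with DESeq2, -2.06 with the replicate block and -2.83 to -1.50 with 1 sample left out, and TERT, CA9 and MYCL had too few reads for the filter of 10 reads in every sample. MLX was not called with upper quartile factors (-0.19) and had -0.33 to -0.25 with 1 sample left out. MNT was not called with library size alone (0.21) or GC and length offsets (0.093). MAX reversed to -0.062 with library size alone and was called with upper quartile factors (0.24), and MXD1 was called with the offsets (0.59). With the offsets MGA, BRMS1 and KAT5 reversed to 0.046, -0.31 and -0.11. Of MYCN, MGA and MLXIPL, 0 were called with RLE or upper quartile factors, DESeq2, 10 reads in every sample or the offsets, and 0 to 1 with 1 sample left out. Of the markers of other cell types, 1 to 3 were called with 1 sample left out. By the longest transcript in place of all exons, the MYC side took 35.6% in VC and 18.5% in VHL-KO, and MAX 11.1% and 11.2%.

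Deviations of samples with the same replicate number correlated at 0.116, -0.063 and 0.055 over 13166 genes. Not every pair passed the limit of 0.1, so the main fit did not pair samples by number. Whether samples of the same number shared a batch was not tested. With the replicate block MYC, MAX, MXI1, MXD1, MXD3, MXD4, MNT, MLX and MLXIP kept their side of the threshold.

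Depth limits MYCL and MLXIPL, and 0 counts of MYCN allow for up to 3. Changes in RNA per cell common to most genes are not visible in these scaled values.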
